A study of Mus musculus with 34 samples.

Results

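The subject is the change from normal liver to liver tumour in 48-week-old mice, described from 9 of the 34 arrays of the series. The 5 arrays labelled as tumours of Pdgf-c Tg mice at week 48 (replicates 1 to 5) were set against the 4 arrays of liver from C57/B6 wild-type mice of week 48 (replicates 1 to 4). The arrays of each group were taken by these labels. All groups used here were kept on basal diet from week 4, the age at weaning, without drug. Non-tumour liver of PDGF-C transgenic mice of week 48 (5 arrays) and liver of wild-type mice of week 20 (5 arrays) are shown beside the comparison, and the remaining arrays of the series, which include peretinoin-fed groups, were used only for the common estimate of the spread. The labels give the strain of the tumour-bearing animals as Pdgf-c Tg and that of the controls as C57/B6, and both tissues as liver, so transgene and any difference in strain background cannot be told apart. They do not name the promoter or the species of the transgene, nor whether a tumour and a non-tumour liver of the same number came from 1 mouse, nor that each array is a separate animal. The p-values thus rest on the spread between arrays within all 7 groups of the series, not between known animals.

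PDGF-C is a secreted growth factor that signals through the PDGF receptors alpha and beta of stellate cells and fibroblasts, which lay down the scar matrix of the liver. In the published line of this name the transgene is driven in hepatocytes by the albumin promoter, and the animals pass through fibrosis to liver tumours. Hepatocyte tumours are known for re-entering the cell cycle, for expressing genes of the fetal liver, and for losing part of the enzyme equipment of the adult hepatocyte, which differs between the portal and the central side of the lobule.

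RNA was hybridised to 1-colour Affymetrix arrays, and each value is the MAS5 signal of 1 probe set, scaled so that the trimmed mean of every array is 500.003 or 500.004. Changes are differences of log2(signal + 16), tumour minus wild type, with ± standing for the standard error (SE) from a limma fit over all 7 groups, for 5 tumours and 4 wild-type livers throughout, and a gene passed the test at a Benjamini-Hochberg adjusted p under 0.05. The ratio of the 3′ to the 5′ probe sets of Gapdh, a sign of RNA quality, was 0.728 to 0.769 in the tumours and 0.685 to 0.791 in the wild type. Correlations between arrays were 0.960 to 0.976 among tumours, 0.961 to 0.974 among wild-type livers and 0.912 to 0.945 across the 2 groups. The defining hepatocyte markers were at the top of the scale in all 9 arrays: the Alb signal (albumin) was 25500.0, 28294, 21220.3, 23957 and 24872 in tumours 1 to 5 and 25976, 33495, 31642 and 30417 in wild-type livers 1 to 4. Wild-type array 4 stood apart. It carried skeletal muscle transcripts, whose list mean exceeded the median over the arrays by 5.84 log2 units, and no tumour array did. In the transgenic liver group, array 4 carried both muscle (7.75) and pancreatic acinar transcripts (5.37). In bulk tissue, fewer cells of a type and less RNA per cell cannot be told apart, which holds for every level below.

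Of 13099 genes tested, 3548 (27.1%) passed the test, 2341 (17.9%) with a higher and 1207 (9.21%) with a lower signal in tumours. Rises thus made up 66.0% of the calls, and the median change of all genes was 0.03 log2 units. Median centring of the arrays shifted that median to 0.11 and the share of rises to 79.4% (2679 higher, 697 lower), while quantile normalisation gave 62.3%. A change of at least 2-fold was called in 1239 genes (9.46%), as a rise in 1009 (7.7%) and as a fall in 230 (1.76%). Beyond 4-fold the asymmetry was larger, with 211 rises and 34 falls. The 5 tumour signals lay wholly above the 4 wild-type signals in 2047 genes (15.6%) and wholly below in 1043 (7.96%). Without the arrays that carried muscle or pancreas transcripts, 3386 genes passed, 3079 of them shared with the full fit. The shares of 17.9% higher and 9.21% lower are the background of every list count below.

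**Figure D1:**
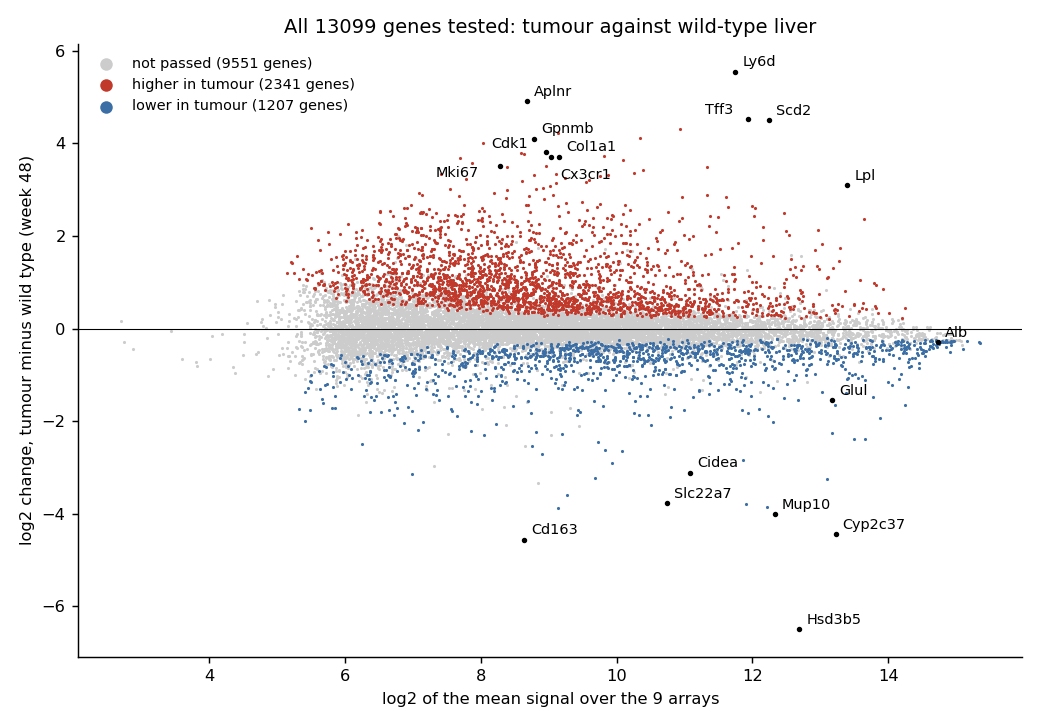
Log2 change of each of the 13099 genes tested (y axis, tumour minus wild type at week 48) against the log2 of the mean signal over the 9 arrays (x axis). Red and blue points are the 2341 genes higher and the 1207 genes lower in tumours at an adjusted p under 0.05, grey points did not pass, and black points are named. The largest rise is Ly6d and the largest fall Hsd3b5.

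Genes known as markers of liver tumours or of the fetal liver rose, and 3 of them, Ly6d, Tff3 and Scd2, were among the 4 largest rises that also had non-overlapping groups. In the list of oncofetal and liver tumour markers 13 of 20 measured genes rose and 2 fell, with a median change of 1.78, against 17.9% and 9.21% of all genes tested and a median of 0.03. Like the other lists, it was written with earlier results of these data known. Its counts are thus a description and not independent support. The largest rise in the list was that of Ly6d, which encodes a GPI-anchored surface protein of the Ly6 family. Its signal was 7799, 5808, 6418, 2442 and 8053 in tumours 1 to 5 against 90.6, 128, 83.8 and 126 in wild-type livers 1 to 4, a change of 5.54 ± 0.62 (adjusted p = 7.02e-08). Tumour 4 was the lowest of the tumours and still lay far above every control. Scd2, a stearoyl-CoA desaturase prominent in fetal liver and brain, gave 8889, 8366, 6345, 6375 and 12179 against 266, 345, 286 and 552 (4.49 ± 0.60, adjusted p = 1.27e-06).

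Tff3, a secreted trefoil peptide of mucous epithelia, split the tumours. Its signal was 2019, 10283, 9481, 911 and 11718 in tumours 1 to 5 against 214, 85.2, 115 and 524 in wild-type livers (4.53 ± 0.81, adjusted p = 8.93e-05). Tumours 2, 3 and 5 were high, and tumours 1 and 4 low, though above all controls. Afp, the fetal serum protein alpha-fetoprotein and classical serum marker of hepatocellular carcinoma, rose with signals of 585, 506, 246, 413 and 294 against 55.1, 42.4, 56.1 and 62.0 (2.54 ± 0.38, adjusted p = 7.68e-06). Spink1, a secreted trypsin inhibitor, and Golm1, a Golgi membrane protein used as a serum marker, rose by 3.58 ± 0.57 and 2.17 ± 0.43 with no overlap between the groups. Akr1c18, a steroid-reducing aldo-keto reductase, gave 476, 199, 2272, 114 and 1689 against 92.0, 12.3, 14.8 and 82.6 (3.33 ± 0.75, adjusted p = 0.00114), and tumours 3 and 5 were far above tumours 2 and 4.

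Other textbook markers of liver tumours gave mixed results. Gpc3, the membrane proteoglycan glypican-3, stayed at low signals of 63.6, 62.9, 39.5, 124 and 91.9 against 54.2, 46.7, 3.7 and 52.0 and did not pass (0.84 ± 0.45, adjusted p = 0.178). Igf2, the fetal insulin-like growth factor, gave 98.2, 221, 136, 231 and 90.5 against 28.3, 135, 60.8 and 31.7, with overlapping groups (1.19 ± 0.44, adjusted p = 0.0421), and the call was lost without wild-type array 1, 3 or 4 or tumour 2, 3 or 4 (adjusted p = 0.0577 to 0.145). H19, the imprinted neighbour of Igf2, was below the signal filter. The proteoglycan gene Gpc1 and the imprinted noncoding RNA Meg3 fell (-1.59 ± 0.25 and -1.09 ± 0.31), and for Meg3 the call was lost without wild-type array 3 (adjusted p = 0.0651). Prom1, which encodes the progenitor marker CD133, was high in tumours 1 and 4 only, at 3230.2, 333, 205, 1159.6 and 285 against 58.6, 101, 89.6 and 133 (2.51 ± 0.77, adjusted p = 0.0138), and the call was lost without tumour 1 (adjusted p = 0.0617).

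Several of the steepest rises lay outside the lists. Aplnr, the receptor of the peptide apelin, went from barely measurable signals of 3.4, 5.1, 7.0 and 13.4 to 949.8, 545, 849, 1019 and 297 (4.90 ± 0.51, adjusted p = 1.89e-08). Ubd, a ubiquitin-like modifier induced by inflammatory cytokines, rose by 4.30 ± 0.61, with tumour 4 again lowest (2399, 4300.2, 4595, 464 and 5308 against 102, 190.5, 86.7 and 108, and 4.91 ± 0.55 without tumour 4). Sult1e1, the oestrogen sulfotransferase, gave 542, 4100.0, 2190.2, 1002 and 3398 against 122, 8.2, 102 and 256 (4.12 ± 1.0, adjusted p = 0.00221), and 3.43 ± 1.06 without wild-type array 2. The orphan receptor gene Gprc5b, the syntenin gene Sdcbp2 and the recombination gene Rad51b rose by 4.01 ± 0.55, 3.77 ± 0.52 and 4.22 ± 0.42. Ranked by p instead of size, the table was led by Cdkn2c, Emp1, Tmsb10, Itga8 and Col1a1, in that order. Emp1, a membrane protein of proliferating epithelia, gave 1838, 1082, 1565, 1643 and 1561 against 139, 46.1, 85.8 and 172 (3.72 ± 0.28, adjusted p = 1.57e-10). Tmsb10, an actin-binding thymosin, changed by 2.13 ± 0.17 and Itga8, the integrin alpha-8 chain of stellate cells, by 3.48 ± 0.28 (adjusted p = 4.41e-10 for both).

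**Figure D2:**
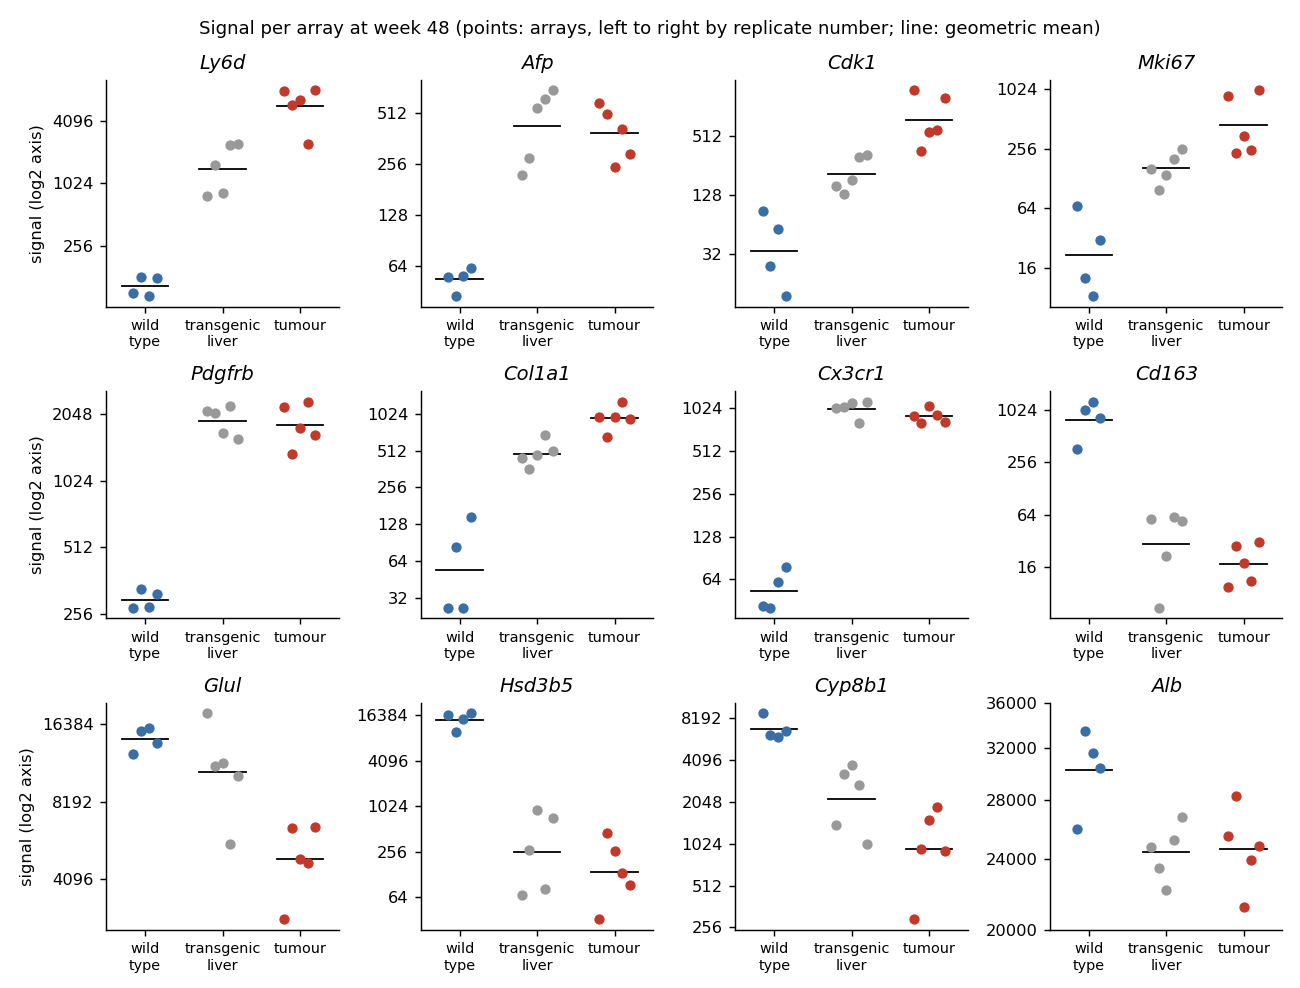
MAS5 signal of 12 genes on a log2 axis, 1 panel per gene, with 1 point per array for 4 wild-type livers (blue), 5 transgenic livers (grey) and 5 tumours (red) of week 48, in order of replicate number, and the geometric mean as a line. The means of Cdk1 and Ly6d are highest in tumours, those of Pdgfrb, Cx3cr1 and Afp lie close together in tumour and transgenic liver, and Alb overlaps between wild type and tumour.

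Genes of mitosis rose together. Of 27 measured genes in the mitosis and chromosome segregation list, 24 rose and 0 fell (median 2.29). The kinase Cdk1, which drives entry into mitosis, gave signals of 1518, 360.1, 562, 591 and 1246 in tumours 1 to 5 and 87.3, 24.1, 58.1 and 11.8 in wild-type livers 1 to 4, a change of 3.82 ± 0.47 (adjusted p = 4.10e-07). Tumours 1 and 5 were highest and tumour 2 lowest. Mki67, the antigen of proliferating cells, was likewise highest in tumours 1 and 5 and lowest in tumour 2, with 871, 230.3, 342, 248 and 999 against 68.1, 12.6, 8.3 and 30.4 (3.51 ± 0.53, adjusted p = 7.59e-06). The anaphase activator Cdc20 gave 2275, 354, 1019, 775 and 2105 against 118, 102, 99.2 and 84.8 (3.21 ± 0.66, adjusted p = 3.97e-04), more than 6 times as high in tumour 1 as in tumour 2. Plk1, a kinase of spindle assembly and cytokinesis, gave 399.6, 107, 207, 180.3 and 342 against 43.9, 39.6, 50.5 and 60.9 (1.90 ± 0.54, adjusted p = 0.00818), and cyclin B2, Ccnb2, gave 818, 198, 436, 278 and 878 against 99.0, 90.3, 71.0 and 53 (2.32 ± 0.57, adjusted p = 0.00244). Foxm1, which encodes a transcription factor of mitotic genes, was at 112, 103, 137, 119.8 and 91.7 against 102, 163, 18.2 and 112 and did not pass (0.38 ± 0.45, adjusted p = 0.580).

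Because these genes moved together, their promoter windows were read from RefSeq (assembly GRCm38.p6), from 250 bases before to 50 bases into the annotated transcript start. Of the 27 measured genes of the mitosis list, 22 had a window. The core of the cell cycle genes homology region, TTTGAA on either strand, lay in 18 of the 22 (81.8%), against 14.7% of the 10565 tested genes with a window and 20.2% of all 27025 genes with one. The CCAAT box, CCAAT on either strand, lay in 17 (77.3%) against 42.3% of tested genes, and both motifs in 17 (77.3%) against 5.63%. Nuf2, Birc5, Nusap1 and Mad2l1, which rose, had neither motif in their window, and Anln had the first alone. In the list of DNA replication genes the first motif was found in 3 of 26 windows (11.5%) and the CCAAT box in 17 (65.4%). A match of letters is a description of the window and not of binding. The windows of 4 genes are printed 5′ to 3′ on the gene's strand because their signals are given above. Capitals mark TTTGAA or its reverse complement TTCAAA and CCAAT or its reverse complement ATTGG, and no 2 matches overlap.
Cdk1 (chr10:69352863-69353162, minus strand): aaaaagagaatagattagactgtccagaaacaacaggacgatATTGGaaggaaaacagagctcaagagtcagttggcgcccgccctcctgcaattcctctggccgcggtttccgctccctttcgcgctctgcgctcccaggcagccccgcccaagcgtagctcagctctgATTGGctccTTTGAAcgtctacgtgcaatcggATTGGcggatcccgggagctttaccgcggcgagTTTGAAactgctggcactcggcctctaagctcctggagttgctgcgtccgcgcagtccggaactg
Plk1 (chr7:122159185-122159484, plus strand): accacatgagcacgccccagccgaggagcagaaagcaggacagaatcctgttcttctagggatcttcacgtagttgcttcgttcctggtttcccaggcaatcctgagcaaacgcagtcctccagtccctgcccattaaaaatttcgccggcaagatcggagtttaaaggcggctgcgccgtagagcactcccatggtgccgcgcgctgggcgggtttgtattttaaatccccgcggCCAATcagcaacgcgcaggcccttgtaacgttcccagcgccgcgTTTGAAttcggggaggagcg
Cdc20 (chr4:118437294-118437593, minus strand): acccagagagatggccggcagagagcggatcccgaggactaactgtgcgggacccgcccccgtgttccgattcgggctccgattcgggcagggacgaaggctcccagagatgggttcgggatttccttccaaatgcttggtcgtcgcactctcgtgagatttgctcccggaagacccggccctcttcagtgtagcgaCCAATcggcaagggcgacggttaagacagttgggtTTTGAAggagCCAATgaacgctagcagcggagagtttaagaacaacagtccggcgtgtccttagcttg
Ccnb2 (chr9:70421505-70421804, minus strand): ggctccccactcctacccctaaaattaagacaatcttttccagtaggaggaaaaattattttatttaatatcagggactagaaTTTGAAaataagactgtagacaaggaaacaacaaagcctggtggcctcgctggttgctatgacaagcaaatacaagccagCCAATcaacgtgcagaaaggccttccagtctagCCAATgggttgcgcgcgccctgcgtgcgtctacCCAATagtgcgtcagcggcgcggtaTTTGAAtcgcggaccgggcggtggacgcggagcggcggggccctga

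**Figure D3:**
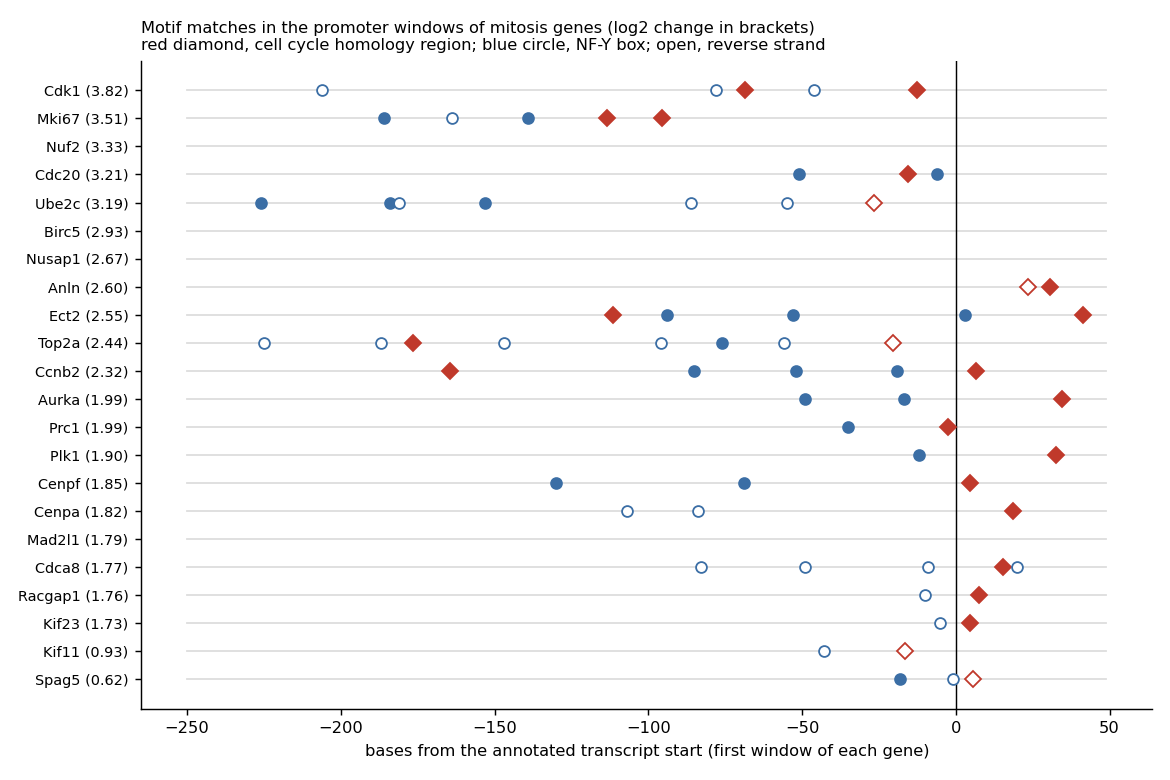
Position of each motif match in the first promoter window of 22 genes of the mitosis list, in bases from the annotated transcript start (x axis), with genes ordered by their log2 change (in brackets). Red diamonds are the cell cycle genes homology region and blue circles the CCAAT box, which is bound by NF-Y, and open symbols lie on the reverse strand. Most diamonds lie near the start, and 4 genes have no match of either kind.

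DNA replication genes rose by less. Among the 30 measured genes of the DNA replication and S phase list, 19 rose and 1 fell, with a median of 0.84. Of the helicase subunits, Mcm5 gave 1078, 315, 481, 578 and 809 against 178, 102, 70.3 and 101 (2.32 ± 0.47, adjusted p = 3.73e-04), and Mcm6, Mcm3 and Mcm4 changed by 2.07 ± 0.42, 1.57 ± 0.36 and 1.21 ± 0.29. The licensing factor Cdt1 (1.72 ± 0.24) and Rrm2, the small subunit of ribonucleotide reductase (1.84 ± 0.33), also rose. The probe set of Mcm10 went the other way at 2104, 1696, 1899.9, 2113 and 1106 against 6489.6, 4035, 7241 and 6389 (-1.75 ± 0.30, adjusted p = 3.82e-05), with its second probe set lower too. Its wild-type signals were far above those of Mcm5, and whether the probe set reads Mcm10 alone was not tested. Fen1, a flap endonuclease, did not pass (-0.70 ± 0.42, adjusted p = 0.238) but was called lower with only the 9 arrays fitted (adjusted p = 0.0187), and another of its probe sets changed with the opposite sign.

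Among regulators of the G1 phase, activators and inhibitors rose side by side. The G1 cyclin, kinase and inhibitor list had 13 measured genes, of which 8 rose and 0 fell, and a median of 0.64. Cyclin D1, Ccnd1, gave 4982, 4095, 3163, 3497 and 5131 against 498, 914, 761 and 886 (2.44 ± 0.36, adjusted p = 5.71e-06), and cyclin D2, Ccnd2, changed by 1.67 ± 0.19. Cdkn2c, the inhibitor p18 of the cyclin D kinases, gave 1429.9, 801, 1182, 1145 and 1109.6 against 208, 178, 210.4 and 312 (2.25 ± 0.17, adjusted p = 1.57e-10), and the inhibitors Cdkn2b and Cdkn2d changed by 2.17 ± 0.35 and 1.15 ± 0.19. Cdkn1a, the p53-responsive inhibitor p21, overlapped between groups with 1122, 1740.3, 1041, 719.8 and 1738 against 974, 439, 382 and 889 and did not pass (0.95 ± 0.49, adjusted p = 0.162). Of 14 measured genes in the p53 target and apoptosis list, 4 rose and 0 fell (median 0.20). Over all genes tested 17.9% rose. Of the p53 list, Phlda3, an inhibitor of Akt, had the smallest p (1.52 ± 0.26, adjusted p = 3.56e-05). Among the 11 measured genes of the immediate early gene list, 4 rose and 0 fell, with a median of 1.11. The transcription factor genes Klf6 and Atf3 and the stress response gene Ier3 rose by 1.87 ± 0.27, 1.34 ± 0.34 and 2.27 ± 0.39, while Myc (1.13 ± 0.54, adjusted p = 0.123) was spread from 68.9 to 1163 among wild-type livers and did not pass (without wild-type array 2, 1.88 ± 0.49, adjusted p = 0.00513).

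The PDGF receptors rose in tumours. The PDGF ligand and receptor list had 7 measured genes, of which 6 rose and 0 fell, and a median of 1.41. Of the ligands, Pdgfc itself gave 809.8, 872, 672, 613 and 1015 in tumours 1 to 5 against 481, 519, 469 and 458 in wild-type livers 1 to 4 (0.69 ± 0.21, adjusted p = 0.0151), a smaller change than that of either receptor, and whether the probe set reads the transgene is not stated in the labels. Pdgfb and Pdgfd, which bind PDGF receptors too, changed by 1.54 ± 0.24 and 1.41 ± 0.20, and Pdgfa did not pass (0.29 ± 0.19, adjusted p = 0.287). Pdgfrb, the beta receptor, gave 2203, 1357, 1784, 2337 and 1649.8 against 272, 331, 273 and 314 (2.56 ± 0.24, adjusted p = 5.09e-09). Pdgfra, the alpha receptor through which PDGF-C chiefly signals, gave 2358, 1263, 1426, 2471 and 1146 against 236, 289, 263 and 358 (2.47 ± 0.31, adjusted p = 4.78e-07). In both receptors the lowest tumour was above the highest control by a factor of more than 3.

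Matrix genes rose. Of 25 measured genes in the extracellular matrix list, 22 rose and 0 fell (median 2.02). Col1a1, the chain of fibrillar collagen I, gave 974, 664, 966, 1290.4 and 932 against 26.5, 83.7, 26.5 and 146 (3.71 ± 0.31, adjusted p = 5.29e-10). Col5a2 and Col3a1, of the fibrillar collagens V and III, and Nid1, a basement membrane glycoprotein, changed by 3.17 ± 0.30, 2.59 ± 0.26 and 2.89 ± 0.28, and Lum, a collagen-binding proteoglycan, by 2.63 ± 0.37. Fibronectin, Fn1, a plasma protein made by hepatocytes, did not pass (-0.22 ± 0.13, adjusted p = 0.213), nor did periostin, Postn, at 324, 510.5, 461, 311 and 780.0 against 335, 554, 346 and 586 (0.03 ± 0.33, adjusted p = 0.957). Among the 13 measured genes of the matrix protease and inhibitor list, 10 rose and 0 fell, with a median of 1.91. Plat, tissue plasminogen activator, gave 1146, 687, 986, 1237 and 1002 against 97.2, 46.5, 104 and 134 (3.25 ± 0.29, adjusted p = 2.75e-09). The collagenase Mmp13, the gelatinase Mmp2 and the macrophage elastase Mmp12 changed by 2.52 ± 0.46, 2.64 ± 0.32 and 3.50 ± 0.55, and the inhibitor Timp1 by 2.19 ± 0.33.

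The TGF-beta signalling list had 14 measured genes, of which 11 rose and 0 fell, and a median of 0.79. Tgfb3 and Tgfb1, of the fibrogenic ligands, changed by 2.50 ± 0.40 and 1.20 ± 0.25, the receptors Tgfbr2 and Tgfbr1 by 1.17 ± 0.19 and 0.57 ± 0.11, and the matrix target Tgfbi by 1.73 ± 0.19. The inhibitory Smad7 rose too (0.82 ± 0.20), while connective tissue growth factor, Ccn2, did not pass (0.46 ± 0.53, adjusted p = 0.566). Of 14 measured genes in the stellate cell and myofibroblast list, 7 rose and 0 fell (median 0.82). Cygb, the cytoglobin of stellate cells, gave 1213, 1318, 899, 2261 and 1188 against 232, 291, 314 and 262 (2.20 ± 0.22, adjusted p = 1.31e-08), and Vim and Lrat, the retinol-esterifying enzyme of quiescent stellate cells, changed by 2.19 ± 0.26 and 1.40 ± 0.28. Acta2, smooth muscle actin and the usual marker of myofibroblasts, gave 734, 1032, 1067, 976 and 1197 against 699, 464, 543 and 2598 (0.26 ± 0.34, adjusted p = 0.624). The highest of these 9 signals was that of wild-type array 4, the array with muscle transcripts, and without that array the change was 0.80 ± 0.28 (adjusted p = 0.0341).

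Genes of recruited macrophages rose, and markers of resident Kupffer cells did not move as 1 group. Among the 12 measured genes of the recruited monocyte and scar macrophage list, 12 rose and 0 fell, with a median of 2.17. Cx3cr1, the fractalkine receptor of monocyte-derived cells, gave 893, 805, 1055, 911 and 819 against 41.9, 40.5, 61.3 and 78.9 (3.70 ± 0.40, adjusted p = 4.75e-08), and the tumours were close to each other. Gpnmb, a glycoprotein of lipid-laden and scar macrophages, gave 679, 1568, 579.7, 606 and 429 against 21.0, 17.9, 17.5 and 54.6 (4.10 ± 0.49, adjusted p = 2.52e-07). Itgax, Lgals3 and Trem2, of the same cells, changed by 2.33 ± 0.26, 2.52 ± 0.34 and 2.12 ± 0.49. The resident Kupffer cell list had 10 measured genes, of which 1 rose and 2 fell, and a median of 0.23, while the count of rises was 0 without wild-type array 1 or 3 or tumour 2 or 5 and the count of falls was 1 without wild-type array 2, 3 or 4 or tumour 2, 3 or 4. Cd163, the haemoglobin scavenger receptor of resident macrophages, gave 9.3, 27.6, 17.5, 11.1 and 30.8 in tumours against 366, 1011, 1273 and 821 in wild-type livers (-4.56 ± 0.46, adjusted p = 1.15e-08), the second largest fall of the named genes. Timd4, a phosphatidylserine receptor of the same cells, fell (-1.17 ± 0.44), but the call was lost without wild-type array 2, 3 or 4 or tumour 2, 3 or 4 (adjusted p = 0.0612 to 0.133). The 1 rise was that of the iron exporter gene Slc40a1 (0.53 ± 0.19), and the call was lost without wild-type array 1 or 3 or tumour 1, 2 or 5 (adjusted p = 0.0510 to 0.174). Clec4f (-0.97 ± 0.66, adjusted p = 0.300), Vsig4 (0.61 ± 0.49, adjusted p = 0.387) and Marco (0.55 ± 0.53, adjusted p = 0.489) did not pass.

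Antigen presentation genes were raised as well. Over all genes tested 17.9% rose and 9.21% fell, which is the background of each list here. Of 8 measured genes in the MHC class II presentation list, 7 rose and 0 fell (median 1.31). Cd74, the invariant chain, gave 6083, 5858, 7476, 6992 and 7306 against 1574, 1865, 1626 and 2094 (1.91 ± 0.27, adjusted p = 3.54e-06), and H2-Eb1 changed by 1.85 ± 0.22. Among the 16 measured genes of the chemokine list, 9 rose and 0 fell, with a median of 0.83. Cx3cl1, the ligand of Cx3cr1, gave 262, 165, 247, 378 and 276 against 19.1, 46.8, 39.4 and 29.3 (2.49 ± 0.23, adjusted p = 3.50e-09), and Cxcl14, a chemokine of epithelia, changed by 3.80 ± 0.63 (4.44 ± 0.63 without wild-type array 4). The interferon response list had 16 measured genes, of which 5 rose and 0 fell, and a median of 0.53, while the count of rises was 3 without wild-type array 3 and 8 without tumour 4. The 5 were Oas1a, Oasl2, Ifit2, Usp18 and Cxcl10, with Oas1a at 1.17 ± 0.25. For Ifit2 the call was lost without wild-type array 3 (adjusted p = 0.0821). For Cxcl10 (0.95 ± 0.34) the call was lost without wild-type array 1, 2 or 3 or tumour 2, 3 or 5 (adjusted p = 0.0531 to 0.152), the change without tumour 5 was 0.61 ± 0.30, adjusted p = 0.152, and the adjusted p was 0.0974 with only the 9 arrays fitted. Of 7 measured genes in the T and NK cell list, 3 rose and 0 fell (median 0.64), while the count of rises was 1 without wild-type array 3 or tumour 1, 3 or 5. Gzmb, the cytotoxic granule protease, rose (1.83 ± 0.45, adjusted p = 0.00257) at low signals of 66.2, 66.7, 67.7, 46.1 and 194. Among the 8 measured genes of the B and plasma cell list, 1 rose and 1 fell, with a median of 0.09, while the count of rises was 0 without wild-type array 2 or 3 or tumour 1 and 2 without wild-type array 1. Cd79b, of the B cell receptor, rose and Xbp1, which hepatocytes express too, fell (0.88 ± 0.27 and -0.38 ± 0.11), and for Cd79b the call was lost without wild-type array 2 or 3 or tumour 1 (adjusted p = 0.0509 to 0.0551). The neutrophil list had 8 measured genes, of which 2 rose and 0 fell, and a median of 1.70, while the count of rises was 1 without wild-type array 2, 3 or 4 or tumour 4 or 5. Csf3r, the G-CSF receptor, rose (1.81 ± 0.36, adjusted p = 3.07e-04), and S100a8, an abundant neutrophil protein, was at 464, 1338, 733, 997 and 5328 against 130.3, 233, 507 and 1097 and did not pass (1.67 ± 0.79, adjusted p = 0.118), with tumour 5 far above the other tumours.

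Of 15 measured genes in the endothelium list, 5 rose and 1 fell (median 0.06), against 17.9% and 9.21% of all genes tested. Cd34, a surface marker of capillary and progenitor cells, gave 682, 579, 592, 1237 and 574 against 46.6, 30.1, 29.8 and 191 (3.31 ± 0.36, adjusted p = 4.75e-08), and Plvap, of fenestrated capillaries, changed by 1.16 ± 0.27. Clec4g, a lectin of the sinusoidal endothelium, fell (-1.48 ± 0.44, adjusted p = 0.0126), and the sinusoidal scavenger receptor Stab2 did not pass (-0.48 ± 0.23, adjusted p = 0.130) but did with only the 9 arrays fitted (adjusted p = 0.0230). Among the 9 measured genes of the bile duct cell and liver progenitor list, 4 rose and 0 fell, with a median of 0.07. Sox4, a transcription factor of progenitor cells, gave 3724, 2743, 2524, 3248 and 3886 against 403, 547, 362 and 432 (2.84 ± 0.30, adjusted p = 4.08e-08), whereas the duct markers Krt19 (-0.18 ± 0.49, adjusted p = 0.822) and Sox9 (0.07 ± 0.31, adjusted p = 0.889) did not pass. The mesothelium list had 7 measured genes, of which 3 rose and 0 fell, and a median of 0.12. These were the keratin genes Krt8 and Krt18, which hepatocytes also express, and Wt1, whereas the other 4, mesothelial markers such as Upk3b (-0.71 ± 0.58, adjusted p = 0.397), did not pass. Of 5 measured genes in the adipocyte list, 1 rose and 2 fell (median -0.44), while the count of falls was 1 without wild-type array 1, 2, 3 or 4 or tumour 1, 2 or 3. The rise was that of Fabp4, which macrophages also express, and the falls were of Retn and Car3, of which for Retn the call was lost without wild-type array 1, 3 or 4 or tumour 1, 2 or 3 (adjusted p = 0.0513 to 0.153) and for Car3 the call was lost without wild-type array 2 (adjusted p = 0.0544). Of 3 measured genes in the erythroid cell list, 0 passed the test, with a median of -0.47. The skeletal muscle list had 11 measured genes, of which 0 passed, and a median of -1.58. In the pancreatic acinar cell list, 0 of 9 measured genes passed the test (median -0.26). The muscle genes were high in wild-type array 4 alone among these 9 arrays, and without the arrays carrying such transcripts the median of the muscle list was -0.32.

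**Figure D4:**
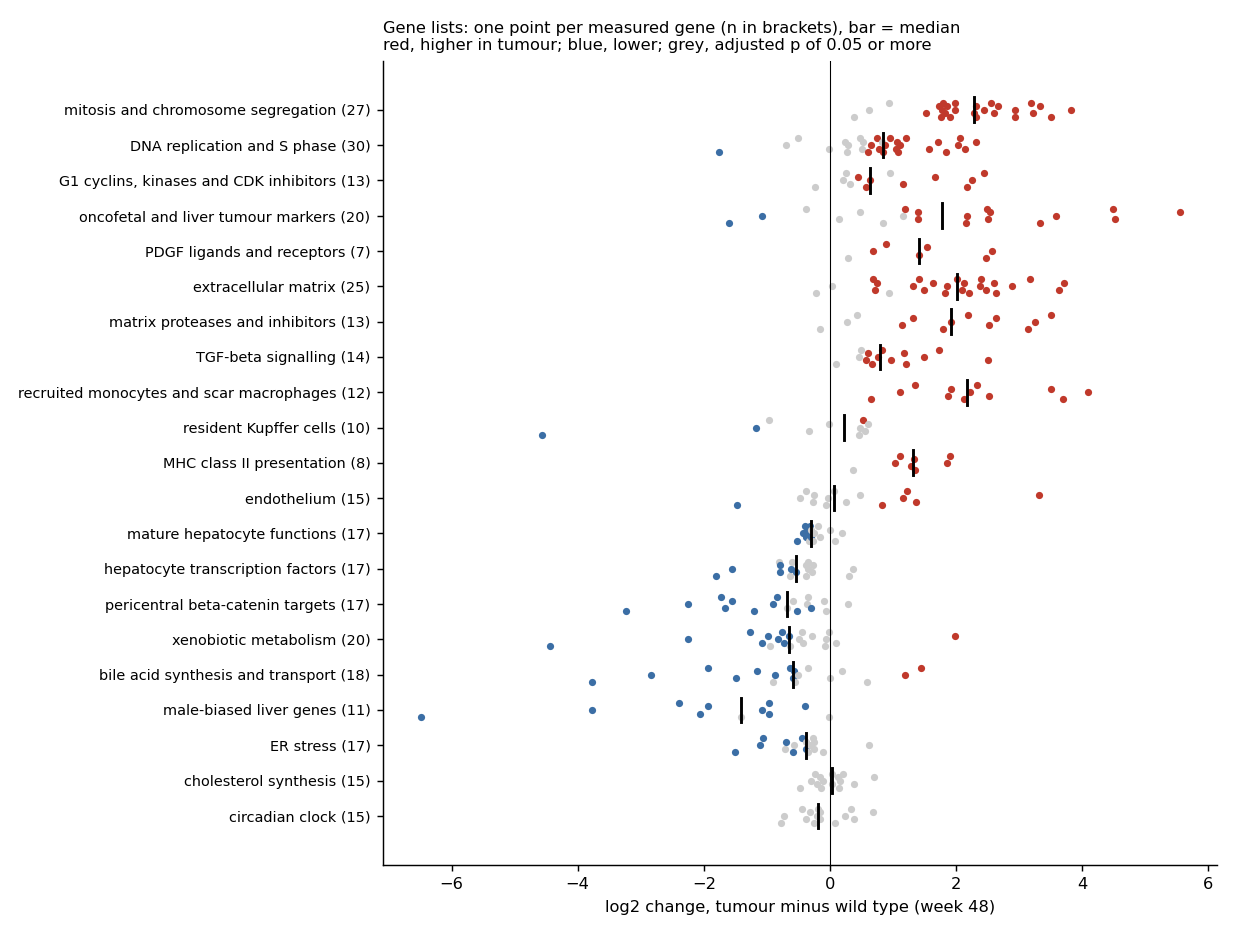
Log2 change of each measured gene (points) of 21 gene lists, tumour minus wild type at week 48, with the list median as a bar and the number of genes in brackets. Red points passed the test as higher, blue points as lower, and grey points did not pass. The medians of the mitosis, matrix and scar macrophage lists lie at 2 log2 units or more, and that of the male-biased genes lies lowest.

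Genes of core hepatocyte functions changed by small amounts. Their list means were high on the scale, at 13.51 to 14.02 log2 units in tumours and 13.80 to 14.17 in wild-type livers. Whether signals this high understate a change was not tested. Among the 17 measured genes of the mature hepatocyte list, 8 fell and 0 rose, with a median of -0.30, while the count of falls was 5 without wild-type array 2, 3 or 4. With quantile normalisation the median was -0.07 and 3 genes fell, and with median centring 1 fell. Otc and Cps1, of the urea cycle, changed by -0.37 ± 0.08 and -0.31 ± 0.08, calls that were lost with median centring (adjusted p = 0.0585 and 0.126). Alb did not pass (-0.29 ± 0.12, adjusted p = 0.0789), but did with only the 9 arrays fitted (adjusted p = 0.0421), without wild-type array 1 (adjusted p = 0.0457) and without tumour 2 (adjusted p = 0.0496). The hepatocyte transcription factor list had 17 measured genes, of which 6 fell and 0 rose, and a median of -0.54, while the count of falls was 3 without wild-type array 3 or 4 or tumour 3. Hnf4a, the master regulator of hepatocyte identity, gave 7391, 9882, 7448, 7999 and 8268 against 10737, 12058, 14269 and 13204 (-0.62 ± 0.14, adjusted p = 0.00144), a small fall without overlap that was no longer called when the probe sets of a gene were averaged (-0.42 ± 0.16, adjusted p = 0.0536). Nr1i3, the xenobiotic receptor CAR, gave 452, 894, 858, 512 and 624 against 2007, 2365, 1784 and 1610.2 (-1.55 ± 0.33, adjusted p = 5.86e-04), and Onecut1 changed by -1.81 ± 0.51.

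Genes of the zone around the central vein fell. Of 17 measured genes in the pericentral beta-catenin target list, 10 fell and 0 rose (median -0.68). Glul, glutamine synthetase of the pericentral hepatocytes, gave 2851, 6470.4, 4912, 4731 and 6559 against 12625, 15386, 15874 and 13874 (-1.55 ± 0.35, adjusted p = 0.00100). The glutamate transporter Slc1a2, found in the same cells, gave 116, 167, 206, 224 and 93.8 against 1090.3, 1813, 2194 and 1460.1 (-3.24 ± 0.53, adjusted p = 2.60e-05). Rhbg, an ammonium transporter, and Lgr5, a receptor that amplifies Wnt signals, changed by -1.66 ± 0.28 and -1.21 ± 0.35, and for Lgr5 the call was lost without wild-type array 2 (adjusted p = 0.0573). Axin2, the general feedback target of beta-catenin, did not pass (-0.36 ± 0.23, adjusted p = 0.262). Cyp2f2, an enzyme of the opposite, portal side that was listed for comparison, fell as well (-0.52 ± 0.18, adjusted p = 0.0309), but the call was lost without wild-type array 2, 3 or 4 or tumour 1 or 4 (adjusted p = 0.0624 to 0.0777), and it was lost with quantile normalisation (-0.30 ± 0.17, adjusted p = 0.185).

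Among the 20 measured genes of the xenobiotic metabolism list, 1 rose and 9 fell, with a median of -0.65. Cyp2c37, a pericentral cytochrome P450, gave 1242, 1386, 619, 2280.2 and 232 against 18300.3, 23637, 21798 and 16555 (-4.44 ± 0.61, adjusted p = 2.14e-06), and its relatives Cyp2c54 and Cyp2c29, whose near-identical sequences the probes may not separate, changed by -3.25 ± 0.50 and -1.26 ± 0.18. Cyp1a2, which metabolises caffeine, gave 3487, 3689, 3484, 5135 and 1919.9 against 14309, 15521, 20668 and 14641 (-2.25 ± 0.37, adjusted p = 3.10e-05). The exception was Cyp2c55, which rose (1.99 ± 0.55, adjusted p = 0.00717). The glutathione and NRF2 list had 17 measured genes, of which 8 rose and 2 fell, and a median of 0.31, while the count of rises was 4 without wild-type array 1 or 3 or tumour 1 and 5 without wild-type array 4 or tumour 2 or 5. Gstm3, a glutathione transferase, gave 21849, 20038, 16172, 19519 and 21669 against 4659, 4766, 3481 and 2693 (2.37 ± 0.35, adjusted p = 5.68e-06), and Nqo1, a standard NRF2 target, changed by 0.59 ± 0.18.

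Bile acid genes fell in both synthesis and uptake. Of 18 measured genes in the bile acid synthesis and transport list, 2 rose and 9 fell (median -0.58). Cyp8b1, the 12-alpha-hydroxylase that sets the share of cholic acid, gave 292, 933, 1514, 1896 and 915 against 8920.0, 6179.5, 5995 and 6654 (-2.84 ± 0.52, adjusted p = 9.78e-05). Cyp7b1 of the alternative pathway gave 3526, 13430.5, 6616, 4741 and 7627 against 24415, 22776, 24709.6 and 27593 (-1.94 ± 0.45, adjusted p = 0.00139), whereas Cyp7a1, the rate-limiting enzyme of the classical pathway, did not pass (0.19 ± 0.37, adjusted p = 0.750). The uptake carriers Slco1a1, Slc10a1 and Slco1b2 changed by -3.78 ± 0.62, -1.48 ± 0.26 and -1.15 ± 0.20, and the carrier Slco1a4 and the sterol exporter Abcg5 rose by 1.44 ± 0.33 and 1.18 ± 0.23. The promoter window of Cyp8b1 is shown because it holds the only match to CAAAGTCCA, the consensus of the regulator HNF4-alpha, in capitals, among the 13 genes of this list with a window. The letters occur on either strand in 0.672% of tested genes and in 0 of 12 genes of the mature hepatocyte list. Elsewhere they lay in 1 gene each of the xenobiotic metabolism (Cyp3a11), scar macrophage (Gpnmb, which rose) and pancreatic acinar lists (Cela2a).
Cyp8b1 (chr9:121916256-121916555, minus strand): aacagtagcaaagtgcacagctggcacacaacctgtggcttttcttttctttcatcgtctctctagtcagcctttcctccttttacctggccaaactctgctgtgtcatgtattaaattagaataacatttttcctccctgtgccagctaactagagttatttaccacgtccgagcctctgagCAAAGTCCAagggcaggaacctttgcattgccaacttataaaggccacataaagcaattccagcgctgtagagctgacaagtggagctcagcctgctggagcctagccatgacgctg

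Genes that the male liver expresses above the female liver fell, among them the gene with the largest fall of all. Among the 11 measured genes of the male-biased gene list, 9 fell and 0 rose, with a median of -1.41. Hsd3b5, a steroid reductase of the male liver, gave 32.7, 457, 259, 136 and 91.8 in tumours 1 to 5 against 16489, 9939, 14607 and 17380.0 in wild-type livers 1 to 4 (-6.48 ± 1.23, adjusted p = 1.72e-04). Slco1a1 gave 268, 298, 1066, 666 and 856 against 9149, 5843, 8940.0 and 7564, and Elovl3, a fatty acid elongase, changed by -2.39 ± 0.82 (adjusted p = 0.0290), but the call was lost without wild-type array 1, 2, 3 or 4 or tumour 1 (adjusted p = 0.0507 to 0.0692). Mup10, of the major urinary proteins, whose near-identical copies the probes may not separate, gave 298, 675, 1594, 656 and 451 against 10447, 8509.9, 15167 and 8516 (-4.01 ± 0.63, adjusted p = 1.40e-05). The female-biased gene list had 8 measured genes, of which 1 rose and 0 fell, and a median of 0.44, while the count of rises was 2 without wild-type array 1. The 1 rise was that of Cyp17a1, of steroid synthesis (2.12 ± 0.44, adjusted p = 4.09e-04). In the sex chromosome gene list, 0 of 4 measured genes passed the test (median -0.15). The labels used here do not give the sex of the animals. Xist, which silences the second X chromosome of females, was at 34.9, 76.2, 54.8, 101 and 42.1 in tumours and 93.2, 38.2, 64.6 and 62.6 in wild-type livers, and Eif2s3y of the Y chromosome at 2243, 1006, 1826, 1650.4 and 1759 and 2299.5, 2005, 2518 and 1789.9, with overlapping groups for both.

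Other steep falls lay outside the lists. Slc22a7, an organic anion transporter of the sinusoidal membrane, gave 164, 114, 280.2, 258 and 552 against 3431, 2588, 3979 and 4073 (-3.77 ± 0.56, adjusted p = 5.94e-06). Dct, dopachrome tautomerase, gave 41.9, 54.8, 63.8, 58.6 and 122 against 1074, 1164, 1535 and 973 (-3.88 ± 0.40, adjusted p = 2.08e-08). Susd4, a complement inhibitor, and Cyp2d13 changed by -3.60 ± 0.59 and -2.90 ± 0.30, the pseudogene Serpina4-ps1 by -3.85 ± 0.84, and the noncoding host gene Snhg11 by -3.14 ± 0.51.

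Lipid genes did not move as 1 group. Beside the counts below stand 17.9% higher and 9.21% lower over all genes tested. Among the 20 measured genes of the lipid droplet and fatty acid uptake list, 4 rose and 5 fell, with a median of -0.26, while the count of rises was 2 without wild-type array 1, 3 or 4 or tumour 2, 3 or 5. Lpl, lipoprotein lipase, which the adult hepatocyte normally keeps low, gave 17578, 22037, 16617, 15406 and 16228 against 1583, 1263, 1814 and 4670.3 (3.09 ± 0.36, adjusted p = 1.19e-07). Fabp4, a fatty acid carrier of macrophages and fat cells, rose by 2.44 ± 0.42. Cidea, a protein that enlarges lipid droplets, gave 706, 790.5, 507, 45.1 and 926 in tumours against 5045, 6189, 2314 and 2979 in wild-type livers of week 48 (-3.11 ± 0.82, adjusted p = 0.00447). In wild-type livers of week 20, however, its signal was 72.7 ± 59.8 (mean ± SD, n = 5), so that against that reference the direction turned (2.62 ± 0.77, adjusted p = 0.00834). Without tumour 4, the lowest, the change against week 48 was -2.39 ± 0.78, adjusted p = 0.0220. The fatty acid synthesis list had 18 measured genes, of which 2 rose and 2 fell, and a median of 0.11, while the count of rises was 1 without wild-type array 4 and the count of falls was 1 without wild-type array 1, 2, 3 or 4 or tumour 1. Beside Scd2 and the elongase Elovl5, which rose by 0.43 ± 0.14, stood Mlxipl, a transcription factor of sugar-induced lipid synthesis that fell (-1.19 ± 0.27), and Elovl3. For Elovl5 the call was lost without wild-type array 4 (adjusted p = 0.0931). The main synthase Fasn did not pass (0.40 ± 0.42, adjusted p = 0.522). Of 18 measured genes in the fatty acid oxidation list, 6 fell and 0 rose (median -0.23), while the count of falls was 3 without wild-type array 1 or tumour 5. With median centring 0 genes of this list fell and 1 rose. Of 15 measured genes in the cholesterol synthesis list, 0 passed the test, with a median of 0.03. The largest change of the last list was that of Dhcr7 (0.70 ± 0.38, adjusted p = 0.181). Against wild-type liver of week 20, 4 of the cholesterol synthesis genes rose (median 0.51).

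Each list of this paragraph had a smaller share of rises than the 17.9% over all genes tested, of which 9.21% fell. The apolipoprotein list had 14 measured genes, of which 2 rose and 8 fell, and a median of -0.27, while the count of falls was 4 without wild-type array 2 and 5 without wild-type array 3. With quantile normalisation the median was -0.02 and 4 genes fell, and with median centring 0 fell. Apoa4 and Apoc2, carried on triglyceride-rich particles, rose: Apoa4 gave 14896, 10429, 12308, 7994 and 18023 against 5105, 4796, 4604 and 5302 (1.31 ± 0.30, adjusted p = 0.00145), and Apoc2 changed by 0.98 ± 0.19. Of 17 measured genes in the endoplasmic reticulum stress list, 7 fell and 0 rose (median -0.38). Creld2, Herpud1 and Sel1l, of protein folding and degradation in the endoplasmic reticulum, changed by -1.50 ± 0.38, -1.11 ± 0.24 and -1.06 ± 0.19, and the chaperone Hspa5 by -0.58 ± 0.15, with the call lost under quantile normalisation (adjusted p = 0.0615). Against wild-type liver of week 20 the median of the list was -0.04, and 3 of its genes passed as lower. Among the 19 measured genes of the acute phase list, 1 rose and 5 fell, with a median of -0.22, while the median was 0.02 with quantile normalisation and the count of falls was 2 without wild-type array 2, 3 or 4 or tumour 1, 3, 4 or 5. Lcn2, lipocalin-2, rose (3772, 7144, 15733, 3810.3 and 13997 against 450.2, 1975, 1198 and 2675, 2.50 ± 0.69, adjusted p = 0.00675), and Saa4 fell (-1.38 ± 0.20). The complement and coagulation list had 24 measured genes, of which 3 rose and 9 fell, and a median of -0.27, while the count of rises was 1 without wild-type array 1. The 3 rises were the C1q chains C1qa, C1qb and C1qc, which macrophages make (1.32 ± 0.37, 1.17 ± 0.42 and 1.16 ± 0.38). For C1qb the call was lost without wild-type array 1 or 3 or tumour 1, 2, 3 or 5 (adjusted p = 0.0516 to 0.160), and for C1qc the call was lost without wild-type array 1 (adjusted p = 0.130). The falls were of liver-made proteins such as F7 (-0.50 ± 0.13). With quantile normalisation 5 genes of the list fell, and with median centring 3 fell.

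Of 21 measured genes in the glycolysis list, 6 rose and 2 fell (median 0.01), against 17.9% and 9.21% of all genes tested. The count of falls was 1 without wild-type array 3 or 4. The rises included the hexokinases Hk1 (0.99 ± 0.16) and Hk2 (1.10 ± 0.36), the phosphofructokinase Pfkp, the glucose transporter Slc2a1 and the pyruvate kinase Pkm, which is low in adult hepatocytes (822, 598, 716, 913 and 938 against 258, 228, 168 and 444, 1.55 ± 0.30, adjusted p = 2.22e-04), whereas the liver isoforms Pklr (-0.28 ± 0.35, adjusted p = 0.603) and Slc2a2 (-0.27 ± 0.20, adjusted p = 0.355) did not pass. For Hk2 the call was lost without wild-type array 1, 2 or 3 or tumour 5 (adjusted p = 0.0509 to 0.0920). Among the 23 measured genes of the respiratory chain list, 5 fell and 0 rose, with a median of -0.13, while the median was 0.02 with quantile normalisation and the count of falls was 3 without wild-type array 1 or 3 or tumour 1, 4 or 5. The growth factor and receptor list had 30 measured genes, of which 9 rose and 2 fell, and a median of 0.23, while the count of falls was 1 without wild-type array 2 or 3. Vegfc, of lymphatic growth, the receptor Axl and hepatocyte growth factor, Hgf, rose by 1.22 ± 0.15, 1.37 ± 0.29 and 1.13 ± 0.32, and Igf1, the main hepatic growth factor, did not pass (-0.16 ± 0.11, adjusted p = 0.289). Of 13 measured genes in the Notch list, 5 rose and 0 fell (median 0.47), while the count of rises was 3 without wild-type array 1 or tumour 5. Hey1, a target of Notch, gave 178, 274, 209, 204 and 156 against 14.1, 24.8, 21.6 and 116 (2.13 ± 0.33, adjusted p = 9.94e-06). Among the 20 measured genes of the retinoid metabolism and receptor list, 4 rose and 6 fell, with a median of -0.16, while the count of falls was 3 without wild-type array 3 or tumour 5. These stand beside 17.9% and 9.21% of all genes tested. The retinoic acid receptor Rarb rose (1.04 ± 0.24) and the retinal dehydrogenase Aldh1a1 fell (-0.86 ± 0.12). The iron and metallothionein list had 14 measured genes, of which 3 rose and 2 fell, and a median of 0.10, while the count of falls was 1 without wild-type array 2 or 3 or tumour 5. The rises were of Id1, Smad7 and Slc40a1, of which Id1, a target of BMP signals, changed by 1.43 ± 0.29, and the falls of Fth1 and Slc39a14, shares near those over all genes. For Fth1 (-0.26 ± 0.09) the call was lost without wild-type array 2 or 3 or tumour 3 or 5 (adjusted p = 0.0564 to 0.0868), as it was with only the 9 arrays fitted (adjusted p = 0.0528) and with quantile normalisation (-0.02 ± 0.06, adjusted p = 0.885). In the circadian clock list, 0 of 15 measured genes passed the test (median -0.19). Against wild-type liver of week 20 this list gave 4 rises and 8 falls, with a median of -0.81.

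Non-tumour liver of transgenic mice of the same age gives the levels of the same genes in the organ in which tumours arise. The comparisons of tumours and of transgenic livers with the wild type use the same 4 wild-type arrays, so their values are given side by side and were not correlated. In transgenic liver 2720 genes (20.8%) passed against the wild type, 1858 higher (14.2%) and 862 lower (6.58%). Pdgfrb changed by 2.63 ± 0.24 in transgenic liver and 2.56 ± 0.24 in tumours, Cx3cr1 by 3.87 ± 0.40 and 3.70 ± 0.40, Afp by 2.69 ± 0.38 and 2.54 ± 0.38, and Cd163 by -4.01 ± 0.46 and -4.56 ± 0.46. For the matrix list the medians were 1.94 in transgenic liver and 2.02 in tumours, and for the male-biased list -1.34 and -1.41. For the mitosis list they were 1.02 and 2.29, and for the pericentral list -0.43 and -0.68.

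Tested directly, tumour against transgenic liver, 0 genes passed the adjusted threshold in limma, with a smallest adjusted p of 0.147, and 1075 genes (8.21%) had an unadjusted p under 0.05. Without the arrays that carried muscle or pancreas transcripts 4 genes passed, namely Tceal8, Mest, Treh and Gask1b, all higher in tumours by 1.44 ± 0.23, 1.35 ± 0.22, 1.17 ± 0.20 and 0.90 ± 0.16. These 4 were named after their values were seen. All 27 measured mitosis genes had a higher mean in tumours than in transgenic liver, 25 of them at an unadjusted p under 0.05, with a median difference of 1.27, or 1.34 without those arrays. Cdk1 differed by 1.75 ± 0.45 (unadjusted p = 4.19e-04), with 159, 129.7, 184, 315 and 332 in transgenic livers 1 to 5. Ly6d differed by 1.99 ± 0.58 (unadjusted p = 0.00180) and Glul by -1.12 ± 0.33 (unadjusted p = 0.00166). Slc1a2 differed by -2.12 ± 0.50 (unadjusted p = 1.80e-04) and Cyp2c37 by -2.15 ± 0.57 (unadjusted p = 7.28e-04). Mgp, the matrix Gla protein, was lower in tumours than in transgenic liver by -1.59 ± 0.35 (unadjusted p = 6.69e-05), though above the wild type (1.49 ± 0.37). In the fit without a replicate block none of these differences passed the adjustment over all genes, whereas with the block that of Mgp did (-1.59 ± 0.18, adjusted p = 0.0207). Of the 25 measured matrix genes, 18 had a higher mean in tumours than in transgenic liver and 12 an unadjusted p under 0.05 in either direction. With the block Col1a1, Col4a1 and Nid1 were called higher in tumours (0.94 ± 0.09, 0.88 ± 0.10 and 0.81 ± 0.09). Among the 16 genes called with it, Jpt1, Gins2, Mest, Cdkn1a, Gas2l3, Rrm2 and Hmmr were also higher, and Gsn, Macrod1, Ighm, Slco1a1 and Crispld2 lower. The block treats arrays of the same number as belonging together, which was not established, and it was chosen after seeing the data.

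**Figure D5:**
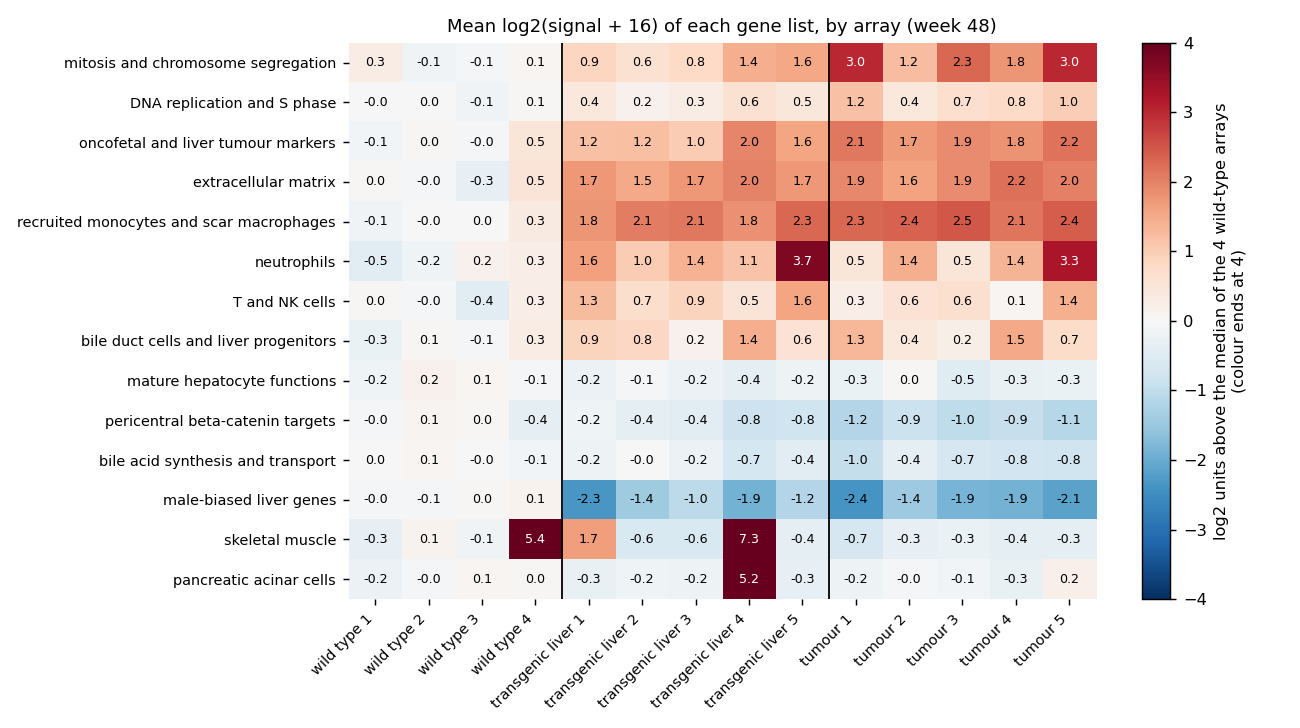
Mean log2(signal + 16) of 14 gene lists (rows) on each array of week 48 (columns), in log2 units above the median of the 4 wild-type arrays. The mitosis list ranges from 1.25 in tumour 2 to 3.03 in tumour 5, the matrix list spans 1.51 to 1.98 in transgenic livers and 1.59 to 2.20 in tumours, the scar macrophage list 1.77 to 2.31 and 2.14 to 2.47, and the muscle list is 5.37 in wild-type array 4.

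The tumours differed among themselves in a few groups. The mean of the mitosis list lay 3.02, 1.25, 2.30, 1.76 and 3.03 log2 units above the wild-type median in tumours 1 to 5, with an SD of 0.78 against 0.20 among wild-type livers. The mean of the neutrophil list had the largest SD of all 50 lists, 1.14 against 0.34, and was 0.48, 1.45, 0.50, 1.37 and 3.27 above the wild-type median. Tumour 5 thus stood out in neutrophil genes, as it did in the T and NK cell list (1.44, against 0.09 to 0.64 in the other tumours). The bile duct list was highest in tumours 1 and 4 (1.34 and 1.51, against 0.24 to 0.73). In contrast, the matrix list lay between 1.59 and 2.20 and the scar macrophage list between 2.14 and 2.47 in all 5 tumours, and the pericentral list between -1.16 and -0.86.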

How the data were processed

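Total RNA of the 34 samples was labelled as biotinylated cRNA and hybridised to Affymetrix arrays, 1 array per sample. The deposited intensity values are MAS5 signals made by the authors, per the submitters' processing notes (version not given in the sources used here), and each array had been scaled to a common trimmed mean, as found from the values. They are not on a log scale. How the scaling and summary of probes were set is not given in the sources used here, and array number limits the precision.

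In R 4.3.3, log2(signal + 16) was taken, the 60% of probe sets with the highest mean were kept, and of the probe sets with exactly 1 gene symbol in GEO's platform annotation (34945 of 45101, with 932 naming several and 9160 none) the one of highest mean signal stood for its gene, leaving 13099 genes. Limma 3.58.1 (lmFit, eBayes with trend) fitted all 7 groups, and p-values were two-sided and adjusted by the Benjamini-Hochberg method over all genes tested. The procedure was tested on simulated data first. Genes were named as the 15 largest rises and 15 largest falls among called genes with non-overlapping groups, a panel of 22, and the 5 genes of smallest p. From each list, some of the up to 4 members of smallest p are named and others are left out. Further members were picked where a sentence on a list needed them, so the members named from a list are examples and not a ranking by p. The comparison, the gene lists and the rules were chosen with earlier results of these data known. Promoter windows came from RefSeq, assembly GRCm38.p6. The alternatives were other offsets, normalisations, filters, probe set rules, sample sets, a replicate block and leaving out each array. Among the arrays compared, the pair with the highest correlation (0.976) held identical signals in 0.26% of probe sets. Other pairs were not checked for identical signals.

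The labels number replicates in every group. Tumours and wild-type livers of the same number deviated from their group means with correlations of -0.07 to 0.10, so numbers 1 to 4 were not taken as pairs.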

Additional observations from a re-analysis of the deposited data

Results flagged for a closer look

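For each named gene, the highest and the lowest array of the tumours and of the wild-type livers were compared with the rest of the group by Dixon's ratio. An array stood apart in 22 of 390 groups. Chance alone marks about 1 group in 20, so this count is near that of chance. The arrays named below are thus a list of values and not a result about these samples. Tumour 4 was the lowest tumour in Ly6d (2442), Apoc2 (13768), Cidea (45.1) and Hspa5 (16087) and the highest in Cd34 (1237). Tumour 5 was the highest in Fasn (13709), Gzmb (194.5) and Pklr (2355) and the lowest in Axin2 (80.2). Tumour 1 was the highest in Cdt1 (978.5), tumour 2 in Xbp1 (15889), and tumour 3 was the lowest in Cyp17a1 (453.1).

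Among the wild-type livers, array 4 was the highest in Gpnmb (54.6) and Cxcl10 (243) and the lowest in Axin2 (147.1). Array 1 was the lowest in Clec4f (1191) and Cyp2f2 (24454) and the highest in Cd79b (208.7). Array 2 was the lowest in Dhcr7 (1613) and the highest in Lgr5 (746.9). Array 3 was the lowest in Gpc3 (3.7) and the highest in Csf3r (177.1).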

How the results depend on the processing

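The count of called genes stayed between 2803 and 4634 under every alternative, against 3548. It was 3514 and 3565 with offsets of 1 and 64, 3562 with quantile normalisation and 3376 with median centring. The count of lower genes was 697 with median centring and 1988 against wild-type liver of week 20, and that of genes at least 2-fold lower was 152 with an offset of 64. Leaving out 1 array gave 2830 (without wild-type array 3) to 3476 called genes (without tumour 2).

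Of 195 named genes, 140 kept direction and call under every alternative that could be run on them. Against wild-type liver of week 20 the sign turned for Cidea (2.62), Cyp7a1 (-0.98), Pklr (0.21), Postn (-0.11), Slc40a1 (-0.041) and Krt19 (0.016), and the calls of Abcg5, Cdt1, Creld2, Cxcl10, Elovl3, Hspa5, Lgr5, Meg3, Mlxipl, Nqo1, Oas1a, Onecut1, Retn, Sel1l, Slco1a4 and Usp18 were lost. Gained against that reference were the calls of Cdkn1a (2.68), Myc (1.48), Fasn (1.16), Dhcr7 (1.09), Eif2s3y (-0.50), Alb (-0.45) and Igf1 (-0.36). It also turned for Postn (-0.084) and Xist (0.015) with quantile normalisation and for Krt19 (0.021) without the arrays carrying muscle or pancreas transcripts. With single arrays left out, 7 genes that had not passed crossed 0: Acta2 ranged from -0.015 to 0.80, Cyp7a1 from -0.031 to 0.33, Foxm1 from -0.13 to 0.67, Krt19 from -0.53 to 0.16, Postn from -0.16 to 0.16, Sox9 from -0.043 to 0.21 and Xist from -0.25 to 0.085. The cause was not tested.

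With the replicate number as a block, 2803 genes were called for tumour against wild type, 2557 of them shared with the fit without the block, and Postn (-0.16) and Xist (0.013) changed sign. The block also gave calls for Fen1 (adjusted p = 0.0117) and Stab2 (adjusted p = 0.0343), and array weights for Alb (adjusted p = 0.0368). For tumour against transgenic liver, 16 genes were called with the block and 4 without the arrays carrying muscle or pancreas transcripts, against 0, alternatives chosen after seeing the data. In 4 of 5 tumours the deviation correlated best with the transgenic liver of the same number, a hint from the data and not the design. Pairing of tumours 1 to 5 with those livers was not established, since tumour 1 correlated with its number at 0.08.

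The limits are 5 against 4 arrays, unknown scaling settings, and MAS5 signals near background, where the added 16 compresses changes.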

Other observations

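Neutrophil genes and T and NK cell genes were high in the arrays with number 5 of both the tumours and the transgenic livers. The mean of the neutrophil list lay 3.27 log2 units above the wild-type median in tumour 5 and 3.74 in transgenic liver 5, against 0.48 to 1.45 in the other tumours and 1.03 to 1.64 in the other transgenic livers. Whether these 2 arrays come from 1 mouse is not stated in the labels.

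Sult2a2, a sulfotransferase of the female liver, had a signal of 45.5, 43.6, 61.6, 38.6 and 2573 in tumours 1 to 5, and Mogat1, an enzyme of triglyceride synthesis, 111, 238, 144, 75.2 and 2083. Both were highest in tumour 5.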
